A study of Mus musculus with 3 samples.

Results

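The retinal pigment epithelium (RPE) is a sheet of pigmented cells that faces the photoreceptors and takes up their shed outer segment tips, and the genes of this uptake were examined in adult murine RPE. They were the receptors Mertk, Axl and Tyro3, the bridging ligands Gas6 and Pros1, the integrin subunits Itgav and Itgb5 with their ligand Mfge8, the scavenger receptor Cd36 and the focal adhesion kinase Ptk2. These 10 genes, of 15597 named genes on the array, were represented by 13 of 35078 mouse probes, found through the RefSeq accession of each spot. RNA came from RPE sheets of C57BL/6 mice aged 2.5–3 months, with 3 samples in 1 group that the series describes as independent biological replicates, no genetic change or treatment, and no control group. The sheets were detached with trypsin after the cornea, iris epithelium and retina had been taken off, and the sources used here do not say how many animals went into each sample. Amplified, biotin-labelled RNA was hybridised to slides of the mouse exonic evidence-based oligonucleotide collection (MEEBO) and scanned in 1 colour, so each gene was read as the brightness of its spot.

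Photoreceptors shed the oldest tips of their outer segments every day, and each RPE cell clears the debris of the photoreceptors it faces. In this process the integrin αvβ5, made of the products of Itgav and Itgb5, binds the tips through Mfge8, which attaches to phosphatidylserine on the exposed membrane, and signals through focal adhesion kinase. Mertk, a receptor tyrosine kinase of the TAM family (Tyro3, Axl and Mertk), then starts engulfment with Gas6 or protein S as the bridge to the membrane. Rats that lack working Mertk bind outer segments but do not engulf them, and their photoreceptors die.

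Each spot was set against the spots of its own array that were taken as negative controls. The threshold was the 95th percentile of 94 such spots, at a background-subtracted intensity of 133, 72.4 and 53.9 scanner units on replicates 1, 2 and 3, and the medians of these spots were 13, 12 and 14. The same 5 control spots lay above the threshold on each of the arrays. The mean intensity of all mouse probes was 831, 476 and 316 units on replicates 1, 2 and 3, so unscaled intensities cannot be set against each other between arrays. Replicate 3 alone had a scan session of its own, which with 1 array could not be tested as a batch, and the header of its export marks the image as redip, a term that the sources used here do not explain. After normalization between arrays, the level of a probe is its log2 intensity above the threshold of its array, given as the mean ± SD over the 3 arrays, and a probe was called when this level exceeded 0 in limma at an adjusted p under 0.05. Levels of different probes are not comparable with each other, since probes differ in how well they hybridise.

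Of the 13 probes of the uptake genes, 9 were called (69.2%), against 25.5% of all mouse probes (27.3% at an unadjusted p under 0.05), and 8 of the 10 genes had a called probe (80%), against 39.8% of all named genes. The genes with a called probe were Mertk, Axl, Tyro3, Gas6, Itgav, Itgb5, Mfge8 and Ptk2, and those with none were Pros1 and Cd36. When each probe of a gene had to be called, 6 genes remained of 10, against 26.2% of all named genes, because Tyro3 and Itgb5 each had 1 called and 1 uncalled probe. The median level was 3.64 over the 13 probes and -0.74 over all mouse probes, which describes these spots and does not rank the abundance of transcripts. The called probes were above the threshold of their array on all 3 arrays, which held for 27.2% of all mouse probes, with levels between 1.15 and 4.57. The 10 genes were chosen with earlier results of these data known, and no test was made on them as a set.

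**Figure D1:**
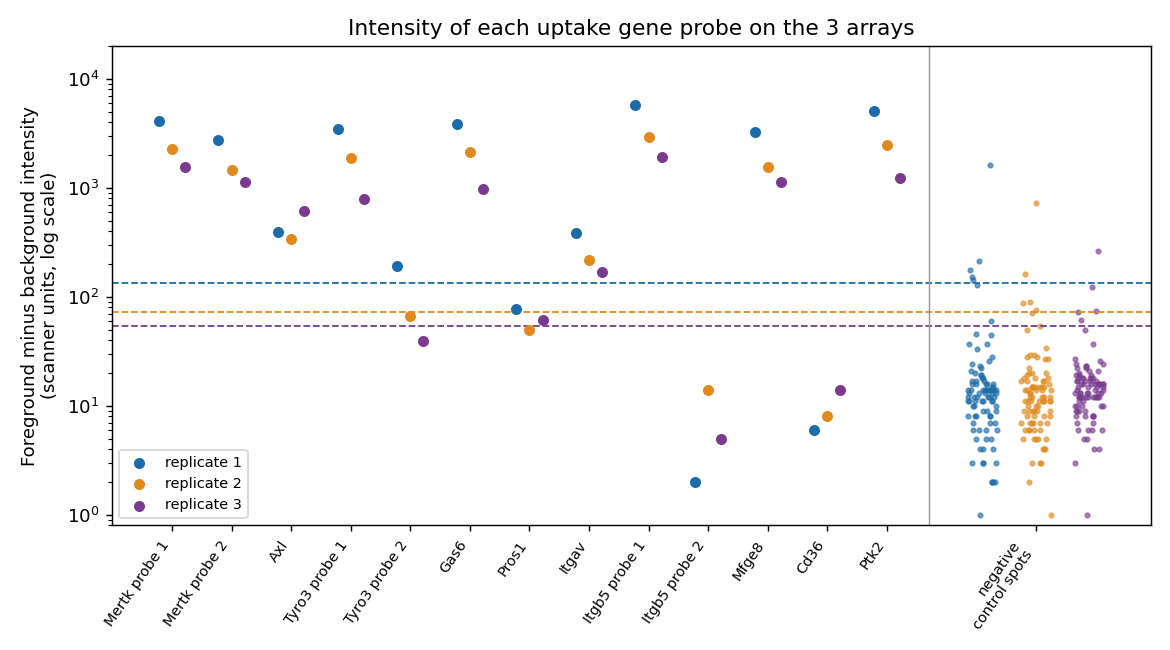
Background-subtracted intensity of each of the 13 probes of the uptake genes (left) and of the 94 negative control spots (right) on the 3 arrays, in scanner units on a log scale, with values under 1 drawn at 1 and dashed lines for the threshold of each array. The probes of Mertk, Gas6, Mfge8 and Ptk2 and 1 probe each of Tyro3 and Itgb5 lay far above the lines on all arrays, whereas Cd36 and the other probe of Itgb5 lay among the control spots.

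Mertk, the receptor tyrosine kinase that starts engulfment, was measured by a pair of probes, both called. The first had intensities of 4068, 2277 and 1536 on replicates 1, 2 and 3, which was 30.7, 31.5 and 28.5 times the threshold of the same arrays. The second had intensities of 2760, 1454 and 1119, or 20.8, 20.1 and 20.8 times the threshold. On each array both probes were brighter than all 94 negative control spots. Their levels were 4.18 ± 0.16 (limma adjusted p = 1.45e-06) and 3.64 ± 0.21 (adjusted p = 3.07e-06, n = 3 each), and Mertk was the only 1 of the 3 genes with several probes for which all probes were called.

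Tyro3, a TAM receptor that binds Gas6 and protein S, gave readings that differed between its probes. The first probe had intensities of 3431, 1866 and 790 on replicates 1, 2 and 3, all above the brightest control spot, and a level of 3.70 ± 0.30 (limma adjusted p = 6.65e-06). The second probe had 193, 66 and 39 units on the same arrays, against thresholds of 133, 72.4 and 53.9, so that it was above the threshold on replicate 1 only. Its level was -0.02 ± 0.31 and it was not called, although it was brighter than 92, 88 and 88 of the 94 control spots. Both probes carry the accession NM_019392, and the files do not say which part of the transcript each one reads. Of all genes with several probes and at least 1 call, 77.5% likewise had an uncalled probe.

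Axl, the TAM receptor with the strongest preference for Gas6, was called on its single probe with the widest spread of all called uptake probes. Its intensities were 392, 337 and 608 on replicates 1, 2 and 3, which was 2.96, 4.65 and 11.3 times the threshold. Replicate 3 was the brightest for Axl although its array was the dimmest for the mouse probes as a whole. The log2 intensity after normalization was 8.15, 8.70 and 10.10 on replicates 1, 2 and 3, a range of 3.87-fold, and the level was 1.89 ± 1.03 (limma adjusted p = 0.00976). The call was lost without replicate 2 (2.03, adjusted p = 0.0692) and held without replicate 3 (1.46, adjusted p = 3.35e-04). Over all alternatives the lowest and highest adjusted p were 1.65e-12 and 0.0692. The lowest came without normalization and with median scaling. There limma gave nearly the same error to every probe, so that value does not reflect the spread of Axl.

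The TAM ligands separated at the threshold. Gas6, whose product carries a γ-carboxylated domain that holds phosphatidylserine, had intensities of 3851, 2136 and 978 on replicates 1, 2 and 3, or 29.0, 29.5 and 18.2 times the threshold. All were brighter than every negative control spot, and the level was 3.92 ± 0.24 (limma adjusted p = 3.11e-06). Pros1, which encodes protein S, the ligand shared by Mertk and Tyro3, had 78, 50 and 61 units, and only replicate 3 lay above its threshold. It was brighter than 88, 86 and 89 of the 94 control spots, and its level of -0.18 ± 0.27 was not called. Pros1 was called (0.51, limma adjusted p = 0.0130) when the threshold was lowered to the 90th percentile of the control spots, as were 38.6% of all mouse probes, and the alternatives gave it adjusted p-values between 0.0130 and 1. A level this close to the control spots is not detectable with the threshold used here, which does not show that the transcript was absent.

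The integrin that binds the tips was read by Itgav, its alpha subunit, and Itgb5, its beta subunit. Itgav had intensities of 385, 219 and 168 on replicates 1, 2 and 3, a steady 2.90, 3.02 and 3.12 times the threshold. It was dimmer than 1 control spot of the 94 on each array, and its level of 1.15 ± 0.17 was called (limma adjusted p = 1.98e-04). Itgav lost its call when the threshold was raised to the 99th percentile of the control spots (0.32, adjusted p = 0.266). Nor was it called when the deposited normalized values of 835, 797 and 848 were tested against an intensity of 500 (0.73, adjusted p = 0.0771). Over all alternatives its adjusted p ranged from 2.27e-05 to 0.266. The highest came with the 99th percentile. There limma gave nearly the same error to every probe, so this value does not reflect the spread of Itgav alone.

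Itgb5 had the smallest spread of the called uptake probes. Its first probe had 5773, 2914 and 1919 units on replicates 1, 2 and 3, or 43.5, 40.2 and 35.6 times the threshold, and all were above each control spot. The level was 4.57 ± 0.06 (limma adjusted p = 8.46e-07), an SD under which only 6.01% of all called mouse probes fell. Its second probe had 2, 14 and 5 units, and the scanner software flagged that spot as not found on all 3 arrays, as it did for 12.1% of mouse probes. That probe lay among the control spots, brighter than 1, 53 and 4 of 94, and its level was -1.14 ± 0.18. Both probes carry the accession NM_010580.

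Mfge8, which links αvβ5 to phosphatidylserine, had intensities of 3254, 1555 and 1132 on replicates 1, 2 and 3. These were 24.5, 21.5 and 21.0 times the threshold, and no control spot was as bright. Its level was 3.76 ± 0.11 (limma adjusted p = 1.35e-06). Ptk2, which encodes the focal adhesion kinase downstream of the integrin, had 5092, 2483 and 1234 units, or 38.4, 34.3 and 22.9 times the threshold. It was likewise above all control spots, at a level of 4.23 ± 0.20 (adjusted p = 1.79e-06). Each of these genes had 1 probe.

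Cd36, a scavenger receptor for oxidised lipids that takes part in the internalisation of outer segments, was at the level of the control spots. Its single probe had 6, 8 and 14 units on replicates 1, 2 and 3, against medians of 13, 12 and 14 for the negative controls, and the spot was flagged as not found on replicates 1 and 2. It was brighter than 15, 24 and 46 of the 94 control spots. Its level was -1.08 ± 0.11, below the threshold on each array, as for 65.1% of all mouse probes. Cd36 was called in none of the alternatives in which it could be tested.

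**Figure D2:**
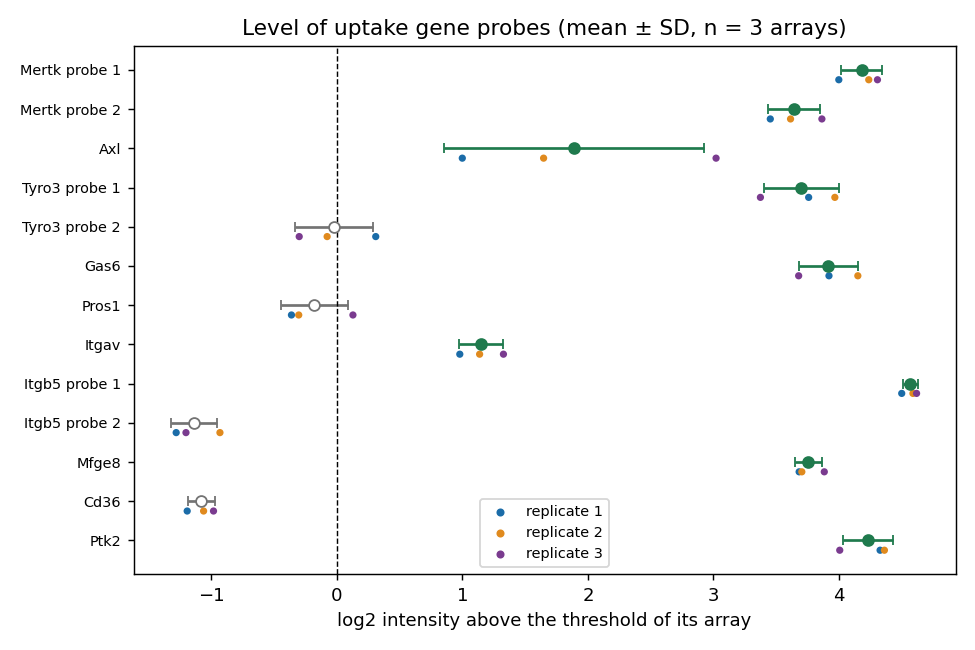
Mean log2 intensity above the threshold of its array for each probe of the uptake genes, with the SD over 3 arrays as bars and the value on each array as a small point below, where filled symbols are called probes and open symbols uncalled ones. The called probes lie between 1.15 and 4.57, Pros1 and the second Tyro3 probe straddle the threshold at 0, and Axl has the longest bar, with an SD of 1.03.

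The promoters of the uptake genes are shown for the receptor with both probes called and for the gene at the level of the control spots, which also differ in CpG content. The RefSeq table for GRCm38.p6 held 1 window of 300 bases, from 250 before to 50 after the start, for 9 of the 10 genes, with Ptk2 not among them. CpG dinucleotides are in capitals, and both windows are written along the strand of the gene.
Mertk, chr2:128698665-128698964, plus strand: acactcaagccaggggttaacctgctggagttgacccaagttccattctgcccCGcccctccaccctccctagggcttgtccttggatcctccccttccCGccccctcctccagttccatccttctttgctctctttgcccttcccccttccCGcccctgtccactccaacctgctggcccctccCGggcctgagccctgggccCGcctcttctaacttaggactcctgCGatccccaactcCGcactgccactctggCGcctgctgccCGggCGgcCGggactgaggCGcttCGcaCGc
Cd36, chr5:17835847-17836146, minus strand: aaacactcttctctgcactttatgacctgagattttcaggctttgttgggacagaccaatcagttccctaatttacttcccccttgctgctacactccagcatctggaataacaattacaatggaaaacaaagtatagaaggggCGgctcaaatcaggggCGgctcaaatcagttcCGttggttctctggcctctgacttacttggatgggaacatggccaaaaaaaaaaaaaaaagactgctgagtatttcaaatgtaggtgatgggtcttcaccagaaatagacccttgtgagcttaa
The Mertk window held 14 CpGs and the Cd36 window 3, against a median of 7 over 32851 windows, of which 94.6% held at least 1. Among the other genes with a called probe, Axl had 6, Gas6 and Mfge8 17 each, Itgb5 20, Itgav 24 and Tyro3 31. Pros1, which was not called, had 21, so CpG content did not separate called from uncalled genes. The 6-letter words CACGTG and CATGTG, of the kind the RPE factor Mitf binds, and TAATCC, of the kind Otx2 binds, were searched on both strands and were found in 0 of the 9 windows, against 7.15%, 14.2% and 7.06% of all windows. The absence of these letters from a window of this length says nothing about whether the factors act on the genes.

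The called uptake probes other than Axl varied between the samples about as called mouse probes did. Their SD exceeded that of 6.01% (Itgb5) to 70.0% (Tyro3) of all called mouse probes. The median SD of the level was 0.20 over the 9 called probes and 0.22 over all called mouse probes, and that of Axl exceeded the SD of 99.4% of all called mouse probes. In log2 intensity, replicate 3 minus the mean of replicates 1 and 2 was 1.68 for Axl (3.20-fold), while over all called probes this difference had a median of -0.07, with -0.70 and 0.59 as its 5th and 95th percentiles. It was 0.17 and 0.31 for the probes of Mertk, 0.05 for the called Itgb5 probe, 0.17 for Mfge8 and 0.25 for Itgav. It was -0.38 for Gas6, -0.51 for the called Tyro3 probe and -0.36 for Ptk2. With 3 samples of 1 group these differences have no test. Of the TAM receptors, Axl and both Mertk probes were thus highest on replicate 3, Axl by the widest margin, and the called Tyro3 probe was lowest there.

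Genes that act with the uptake receptors were counted in 5 lists. Of 56 such genes on the array, 29 had a called probe (51.8%), against 39.8% of all named genes. A gene counted when any of its probes was called, which favours genes with several probes. By probe, 5 of 10, 5 of 15, 6 of 15, 15 of 46 and 4 of 19 were called in the lists, in the order given below. The share of all mouse probes was 25.5%. Of 7 partners and other ligands of the TAM receptors, 5 were called (71.4%). They were Lgals3, or galectin-3, a ligand of Mertk (4.84 ± 2.26), Grb2, an adaptor of receptor tyrosine kinases (2.41 ± 0.08), Adam17, the protease that sheds Mertk from the cell surface (1.22 ± 0.18), and the cytokine signalling inhibitors Socs3 (2.44 ± 2.08) and Socs1 (0.61 ± 0.20, on 1 of its 2 probes). Tub (0.20 ± 0.06) and Tulp1 (-0.08 ± 0.10), both described as ligands of Mertk, were not called. Without replicate 2, when Lgals3 (adjusted p = 0.0617) and Socs3 (adjusted p = 0.243) lost their calls, the count was 3. A threshold at the 99th percentile also gave 3, since Adam17 (adjusted p = 0.127) and Socs1 (adjusted p = 1) lost theirs.

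Lgals3, Socs3 and Anxa2, an actin-binding membrane protein, also varied widely between the samples. Lgals3 had 1199, 5222 and 9582 units on replicates 1, 2 and 3, Socs3 183, 738 and 1646, and Anxa2 3292, 8601 and 11050. All 3 were lowest on replicate 1 and highest on replicate 3, against the fall in overall brightness. These were the only called genes of the 5 lists with an SD over 1, which 0.694% of all called mouse probes had, and they were singled out after their values were seen. The levels on replicates 1, 2 and 3 were 2.35, 5.40 and 6.77 for Lgals3, 0.26, 2.67 and 4.40 for Socs3 and 3.70, 6.12 and 6.97 for Anxa2.

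**Figure D3:**
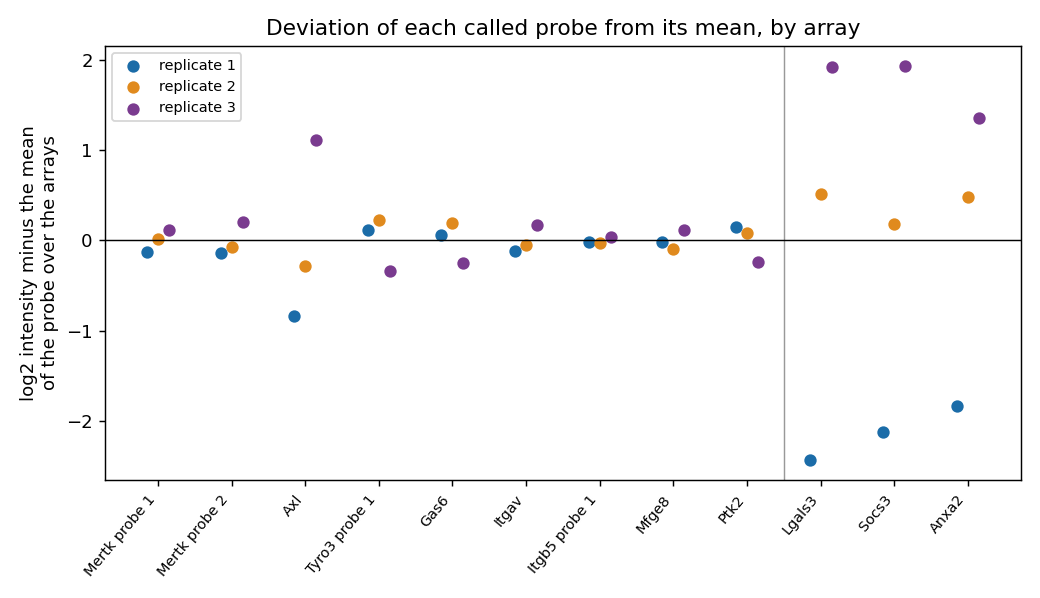
Log2 intensity after normalization minus the mean of the probe over the 3 arrays, for the 9 called probes of the uptake genes (left of the line) and for Lgals3, Socs3 and Anxa2 (right), with 1 point per array. Axl, Lgals3, Socs3 and Anxa2 are lowest on replicate 1 and highest on replicate 3, whereas Tyro3, Gas6 and Ptk2 are lowest on replicate 3.

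Of 9 ligands and partner subunits of αv integrins, 4 were called (44.4%, near the 39.8% of all named genes), on 5 of 15 probes. Vtn, or vitronectin, another ligand of αvβ5, was at 4.62 ± 0.18, Cd81, a tetraspanin that associates with αvβ5, at 8.05 ± 0.02, and Thbs1, or thrombospondin, a ligand of Cd36, at 1.05 ± 0.37. Among the beta subunits other than that of αvβ5, Itgb1 was called (4.38 ± 0.06, on 1 of its 2 probes), while Itgb3 (-0.90 ± 0.13) was not, nor were the matrix ligands Fn1 (-1.07 ± 0.22), Edil3 (-1.14 ± 0.17) and Spp1 (-0.89 ± 0.35). Of 9 genes of the focal adhesion kinase module, 5 were called (55.6%, against 39.8% of all named genes), on 6 of 15 probes. The scaffold Bcar1 was at 4.71 ± 0.16 and the adaptor Pxn, or paxillin, at 3.72 ± 0.24 on 2 of its 3 probes. Tln1, or talin, was at 3.00 ± 0.19, Vcl, or vinculin, at 2.33 ± 0.54 and the kinase Src at 1.01 ± 0.18 on 1 of its 2 probes. At the 99th percentile Src (adjusted p = 0.887) and Thbs1 (adjusted p = 0.624) were not called. Ptk2b, the relative of Ptk2, was at -0.93 ± 0.11 and was not called, and the Src family kinases Fyn (-1.10 ± 0.15), Yes1 (-0.75 ± 0.21) and Lyn (-1.26 ± 0.05) were not called either.

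Of 16 genes of the cytoskeletal engulfment machinery, 11 were called (68.8%, against 39.8% of all named genes). The list held 46 probes, of which 15 were called, against 25.5% of all mouse probes. With more than 50% of the probes of a gene required, 8 genes remained, against 27.7% of all named genes. The GTPases Rac1 and Cdc42 were at 5.05 ± 0.25 and 4.63 ± 0.05 (Cdc42 on 1 of its 4 probes) and Rhoa at 2.51 ± 0.13 on 2 of its 3 probes. The adaptors Crkl and Crk were at 3.15 ± 0.32 on 1 of 2 probes and 1.56 ± 0.19 on 2 of 3. Elmo2, part of an exchange factor for Rac1, was at 3.12 ± 0.09, whereas its relative Elmo1 (-0.65 ± 0.17) had 0 of 15 probes called. The myosins Myo7a, which moves phagosomes and melanosomes in RPE, Myh9 and Myh10 were at 1.29 ± 0.33, 1.84 ± 0.41 and 2.22 ± 0.45 (Myh10 on 1 of its 3 probes), and the apical linker Ezr, or ezrin, was at 6.80 ± 0.20. Rhog (-0.27 ± 0.04), Vav1 (-0.85 ± 0.26) and Vav2 (0.27 ± 0.32) were not called.

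Other receptors for apoptotic cells and scavenger receptors were called in 4 of 15 cases (26.7%), against 39.8% of all named genes. The called genes were the lipoprotein receptor Scarb1 (6.00 ± 0.25, on 1 of its 2 probes), Lrp1, a large endocytic receptor (3.99 ± 0.27, on 1 of its 2 probes), Scarb2, a lysosomal membrane protein (2.41 ± 0.44), and Jmjd6 (intensities of 5925, 4225 and 3336 on replicates 1, 2 and 3), once described as a phosphatidylserine receptor and now known as a nuclear hydroxylase. The 11 that were not called included Megf10 (-0.58 ± 0.23), Stab1 (-0.11 ± 0.13), Stab2 (0.25 ± 0.24) and Timd4 (-1.05 ± 0.10), which bind or clear dying cells in other tissues. With more than 50% of the probes of a gene required, this count was 2.

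**Figure D4:**
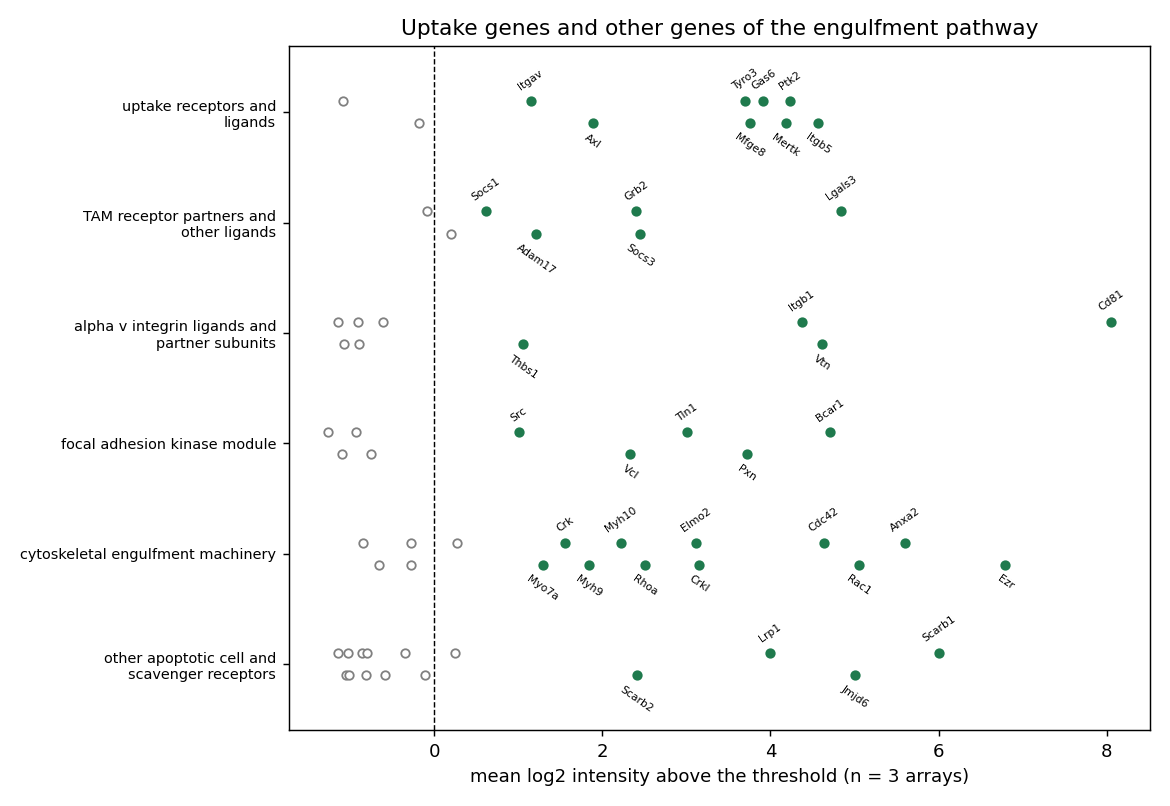
Mean log2 intensity above the threshold over 3 arrays for the 10 uptake genes (top) and the other genes of the engulfment pathway by list, each gene by the probe with the largest limma statistic, with called genes filled and named and uncalled genes open. The dashed line at 0 is the threshold, and 8 of 10 uptake genes and 29 of 56 other genes are called.

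Several of the uptake genes are also expressed by cells that lie next to the RPE, so the markers of those cells were read on the same arrays. In this preparation RNA of a few such cells and a low level in RPE cells cannot be told apart. RPE markers were called in 11 of 12 cases (91.7%, against 39.8% of all named genes), among them Rpe65, Rlbp1, Lrat and Rgr, and the exception, named after its value was seen, was the channel Best1 (-0.74 ± 0.10). Of 10 macrophage and microglia genes, which mark cells that use Axl and Mertk, 0 were called, among them Aif1 (-1.17 ± 0.17), Cx3cr1 (-0.84 ± 0.08), Itgam (-0.27 ± 0.27) and Ptprc (-1.07 ± 0.23). Likewise 0 of 10 endothelial and 0 of 6 platelet genes passed limma. Without adjustment, at a p under 0.05, the counts were 0, 0 and 0 for macrophages and microglia, endothelium and platelets, and a threshold at the 90th percentile, which called 53.7% of all named genes, made them 3, 6 and 1. Of 10 genes of fibroblasts and pericytes 2 were called (20%, against 39.8% of all named genes), Pdgfrb and, on 1 of its 4 probes, Dcn. Of 12 rod genes 2 were called (16.7%), Gnat1 on 1 of its 2 probes and Rom1. Of 7 Müller glia genes 4 were called (57.1%). They were Glul (4.43 ± 0.16), Vim (4.23 ± 0.07), Dkk3 (4.42 ± 1.19, on 1 of its 2 probes) and Rlbp1, which RPE also expresses. The others on the array, Slc1a3 (0.14 ± 0.97), Aqp4 (-0.67 ± 0.02) and Gfap (-0.98 ± 0.10), were not called. The levels of Dkk3 on replicates 1, 2 and 3 were 3.66, 3.80 and 5.79.

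The marker lists were also read array by array, since Axl was highest on replicate 3. Above the threshold on replicates 1, 2 and 3 were 3, 4 and 8 of 12 rod genes, 2, 3 and 5 of 10 fibroblast and pericyte genes, 0, 2 and 3 of 10 endothelial genes and 0, 0 and 3 of 10 macrophage and microglia genes. The counts were 0, 0 and 0 of 6 for platelets, 4, 4 and 5 of 7 for Müller glia and 11, 11 and 11 of 12 for RPE. A gene was counted when any of its probes was above the threshold. Of all mouse probes, 30.1%, 31.7% and 31.3% were above it on replicates 1, 2 and 3. These are shares of probes, so the gene counts cannot be set against them directly. For calls, the share was 25.5% of mouse probes and 39.8% of named genes. The macrophage and microglia genes above it on replicate 3 were the complement genes C1qa, C1qb and C1qc, named after their values were seen, at 0.15, 0.56 and 0.38. On replicates 1 and 2 all 3 of these genes were below the threshold.

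The summed normalized intensity on replicates 1, 2 and 3 was 9875, 10640 and 18110 units for the rod genes and 2128, 1847 and 4355 for the fibroblast and pericyte genes. Single genes weighed in both sums, which were highest on replicate 3. Dcn, a matrix proteoglycan, had levels of 2.12, 1.47 and 4.17, and Gnat1, the rod transducin, had 2.72, 2.71 and 4.95. The other called gene of the fibroblast and pericyte list, the receptor Pdgfrb, had 1.19, 1.60 and 1.56. The sums were 1055, 1054 and 1260 for macrophages and microglia, 1218, 1272 and 1431 for endothelium and 536.4, 552.9 and 483.5 for platelets. No gene of these 3 lists was called, and each probe carries the added offset of 50 units, so no change is read from them. Müller glia genes summed to 30520, 26820 and 30940 and RPE genes to 346600, 353500 and 330300 units. No order is read from the RPE sum, since it holds the visual cycle enzyme Rdh5, whose intensity of 65474 on replicate 1 is near the upper end of the scanner's range. The part of these cells in the level of Axl was not tested.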

How the data were processed

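Total RNA of RPE sheets was profiled on 3 MEEBO arrays, 1 per sample. For each array the authors deposited the scanner's export (GenePix Pro 4.1.1.4) with the median intensity of every spot and of its local surround, linear and not normalized per the file headers. The deposited spot flag, a score of the scanner software, was used only to report spots not found. A deposited table of values, normalized by the authors, held an intensity that equalled the background-subtracted intensity, with values under 1 set to 1, times a factor of 2.17, 3.64 and 5.05 for replicates 1, 2 and 3. No genome build is named in the files.

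Intensities were corrected in limma 3.58.1 (R 4.3.3) by normexp with an offset of 50 fitted on all spots, taken to log2, and quantile-normalized over the mouse probes and the 94 spots of the class mCN. This class was taken as negative controls, although the sources used here do not say what it is made of. Each level was tested against 0 with lmFit and eBayes (intercept only, one-sided) with Benjamini-Hochberg adjustment over 35078 mouse probes. The script was tested on simulated data. Each SD holds only the spread of its probe between these 3 samples, whereas the eBayes p-values also draw on the spread of the other mouse probes. Neither reaches beyond these 3 samples, and the number of arrays limits the precision.

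Probes were named by accession through a RefSeq gene table of GRCm38.p6. A name was found for 23071 probes, 5612 had an accession without a match and 6395 no accession, so further probes of the uptake genes may be among these. The export holds no probe sequences. The number of columns left unused was 0.

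The uptake genes and all lists were chosen with earlier results of these data known. By rule the text names all uptake genes with every probe, the called genes of each pathway list, and up to 4 uncalled genes or markers per list. Beyond this rule, all Müller glia genes on the array are named. A list gene is given by the probe with the largest limma statistic. Alternatives changed the threshold, background correction, normalization, filter, variance model, input table, gene rule or replicates.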

Additional observations from a re-analysis of the deposited data

How the results depend on the processing

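The number of called uptake probes ranged from 8 to 11 and the number of genes from 6 to 9 over the alternatives, against 9 and 8 as reported. Leaving out 1 replicate at a time gave 8 to 9 probes and 7 to 8 genes. Of 180 recomputed probe levels, 173 kept their direction where called and their side of the adjusted p of 0.05, 3 called levels lost the call and 4 uncalled levels gained it, and 0 called levels changed direction. The second Tyro3 probe was called with the 90th percentile (0.66, adjusted p = 0.0116) and with the median plus 3 median absolute deviations of the control spots (0.51, adjusted p = 0.0405; range over the alternatives 0.0116 to 1), a threshold chosen after seeing the data, under which Pros1 was called too (0.35, adjusted p = 0.0351). Cd36 and the second Itgb5 probe had no value with dim probes left out.

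A threshold at the 90th percentile called 8382 named genes (53.7%), and counts moved to 4 for rods, 3 for macrophages, 6 for endothelium, 5 for fibroblasts and 1 for platelets. With median plus 3 deviations they moved to 4, 1, 3 and 4 for rods, macrophages, endothelium and fibroblasts. With the 99th percentile the TAM partner count moved to 3. In that setting, without normalization and with median scaling, limma gave nearly the same error to every probe. Calls lost or kept there do not reflect the spread of the single probe. With more than 50% of probes required, scavenger receptors moved to 2, rods to 1 and fibroblasts to 1. Leaving out 1 replicate gave 3 to 5 TAM partners. Naming by symbol was not run, since the export holds no symbols. No paired analysis was possible because there was 1 group. The 94 control spots limit how finely the threshold can be set.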
